A study of Mus musculus with 6 samples.

Results

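The genes described are 10 that encode cohesin and the proteins that load it, release it or halt it on chromatin: Stag1, Stag2, Stag3, Smc1a, Smc3, Rad21, Nipbl, Mau2, Wapal and Ctcf. They were taken by symbol from the 33924 genes of a deposited read-count table, and all 10 were expressed highly enough to be among the 15708 genes tested. The table holds 6 libraries of mouse bone marrow that had been depleted of cells carrying lineage markers with magnetic beads, 3 labelled Stag2KO and 3 labelled Stag2WT. The labels give the Stag2 genotype and, in each title, a short code of letters and a digit whose meaning they do not state. The letters RM occur in the codes of Stag2KO replicates 1 and 2, and no code occurs in both groups. The sources used here do not give the allele, any Cre driver, the age, sex or strain of the animals, or whether each library is its own animal. The p-values therefore measure only the spread between these libraries, which may be technical. The series concerns how Stag1 and Stag2 differ in blood stem cell self-renewal and differentiation.

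Cohesin is a ring formed by the paired arms of Smc1a and Smc3 closed by the kleisin Rad21, with a single Stag subunit bound to the kleisin. Nipbl with Mau2 loads the ring and drives loop extrusion, Wapl (listed under its older symbol Wapal) opens it again, and CTCF bound to DNA halts it at loop anchors. Stag1 and Stag2 are alternatives in somatic cells, Stag3 is used mainly in meiosis, and STAG2 is a recurrently mutated gene in human myeloid malignancy. Cohesin also holds sister chromatids together until mitosis.

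The libraries held 29435651 to 37722325 reads assigned to genes. Markers of the labelled progenitor population were present in both groups, and their summed level was 1352 to 1456 CPM (read counts scaled to library size with TMM factors) in Stag2KO and 1173 to 1252 CPM in Stag2WT. Of these 8 genes, 4 were called higher (Cd34, Meis1, Hlf and Gata2), beside 10.7% of all tested genes. Kit, the stem cell factor receptor gene, was not called (244 ± 19.5 CPM over Stag2KO libraries and 236 ± 15.8 CPM over Stag2WT libraries, SD, n = 3 each). Of the others not called, Flt3 had a log2 fold change of -0.28, Mecom of 0.20 and Myb of 0.20. Markers of several other cell types also differed between the groups. The counts called below stand beside 10.5% of all tested genes called lower and 10.7% called higher. Macrophage marker genes summed to 275 to 394 CPM in Stag2KO and 1001 to 1118 CPM in Stag2WT, with 9 of 9 called lower, and B cell marker genes to 71.3 to 83.2 CPM in Stag2KO and 182 to 287 CPM in Stag2WT, with 8 of 8 called lower. Stroma markers summed to 91.3 to 124 CPM in Stag2KO and 188 to 204 CPM in Stag2WT, with 5 of 8 lower and 1 higher. T cell markers were at 18.0 to 51.1 CPM in Stag2KO and 34.6 to 78.2 CPM in Stag2WT, with 4 of 6 lower. Neutrophil markers summed higher, at 16445 to 22277 CPM in Stag2KO and 14515 to 15800 CPM in Stag2WT, with 3 of 8 higher (Elane, Mpo and Prtn3). The others were not called and went in both directions. Their log2 fold changes were -0.26 for S100a8, -0.12 for S100a9, 0.09 for Ltf, 0.70 for Camp and 0.76 for Ngp. Erythroid markers summed to 617 to 881 CPM in Stag2KO and 772 to 1407 CPM in Stag2WT, with 2 of 8 lower. Megakaryocyte markers summed to 367 to 481 CPM in Stag2KO and 311 to 393 CPM in Stag2WT, with 2 of 7 higher. The sums of these last lists overlapped between the groups. No marker of any of these lists was at 0 in any library. The share of reads outside annotated genes was 11.7% ± 0.984 in Stag2KO and 9.24% ± 0.725 in Stag2WT. The part of these differences in the cohesin values below was not tested. In such mixed marrow, fewer cells of a type and less RNA per cell cannot be told apart.

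The ratios below rest on telling reads of Stag1 and Stag2 apart by sequence. In the transcripts compared here this was possible for stretches of 50 bases, and the read length of the libraries was not examined. In GENCODE M21 (GRCm38, a later build than that of the counts), the coding sequences of Stag2 on chromosome X and Stag1 on chromosome 9 were identical at 72.1% of 3708 aligned bases, and their longest run of identical aligned bases was 23. None of the 6122 stretches of 50 bases in the longest-coding Stag2 transcript occurred in a transcript of another gene, on either strand, and the same held for 6137 stretches of Stag1. The 90-base window around that longest run is shown for the longest stretch the genes share, with capitals at the 21 bases that differ. It spans coding bases 1105 to 1194 of Stag2 and 1114 to 1203 of Stag1, counted from the start codon, all exonic.
Stag2 window around the run: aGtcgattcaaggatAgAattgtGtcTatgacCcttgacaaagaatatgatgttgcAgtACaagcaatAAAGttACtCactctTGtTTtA
Stag1 window around the run: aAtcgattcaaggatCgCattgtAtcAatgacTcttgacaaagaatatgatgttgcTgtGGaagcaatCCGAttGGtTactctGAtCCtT
The least alike gap-free window of the same length, at coding bases 2366 to 2455 of Stag2 and 2378 to 2467 of Stag1, differs at 34 of 90 bases.
Stag2 least alike window: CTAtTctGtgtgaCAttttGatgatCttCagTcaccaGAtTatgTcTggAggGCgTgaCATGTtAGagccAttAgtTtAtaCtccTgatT
Stag1 least alike window: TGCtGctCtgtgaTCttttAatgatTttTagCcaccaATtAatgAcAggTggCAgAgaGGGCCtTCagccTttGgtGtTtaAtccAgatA
Both windows thus carry mismatches spread along their length. Of the other members, Smc3 alone shared any such 50-base stretches with other annotated transcripts, 1.56% of its own, mostly with the gene models Gm11204 and Gm29763. No exon of another annotated gene overlapped a member's exons on either strand.

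Stag2 was lower in every Stag2KO library, yet a large part of its reads remained. It stood at 169, 187 and 183 CPM across the Stag2KO libraries (replicates 1, 2 and 3, the order used throughout), from 4935, 6853 and 6991 reads, against 338, 329 and 324 CPM across the Stag2WT libraries, from 12149, 11509 and 11069 reads. The groups were far apart, with a coefficient of variation of 5.15% in Stag2KO and 2.18% in Stag2WT. The fitted level in Stag2KO was 54.4% of that in Stag2WT, with a 95% interval of 49.2% to 60.1% (log2 fold change -0.88 with an SE of 0.06). Its Benjamini-Hochberg adjusted p, taken over all tested genes with edgeR's quasi-likelihood test as for every adjusted p below, was 0.000278. By unadjusted p only 22 of the 15708 tested genes ranked ahead of it, whereas 905 genes had a lower log2 fold change. Counts are per gene and the allele is not known. Whether the Stag2 reads left in Stag2KO come from intact transcripts was not tested. The 2 nearest tested genes on either side of Stag2 in the RefSeq order of GRCm38 were not called. These were Thoc2, a nuclear RNA export gene (95% interval of 95.7% to 121% of the Stag2WT level), Xiap, an inhibitor of apoptosis gene (92.1% to 111%), Sh2d1a, a lymphocyte signalling adaptor gene averaging 1.56 ± 0.459 CPM over Stag2KO libraries and 1.49 ± 0.464 CPM over Stag2WT libraries, and Dcaf12l1, also at low level (2.38 ± 0.792 CPM over Stag2KO libraries and 1.37 ± 0.174 CPM over Stag2WT libraries, adjusted p = 0.0663).

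**Figure D1:**
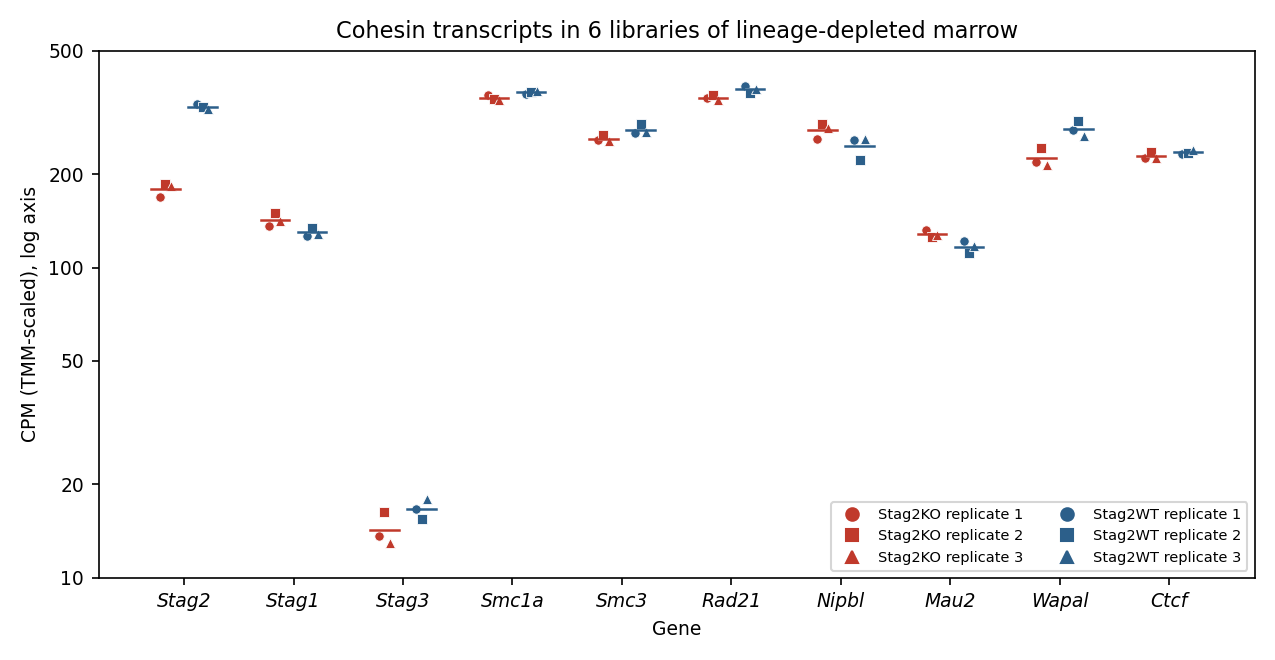
TMM-scaled CPM on a log axis for each cohesin gene, with Stag2KO libraries (red) left of Stag2WT libraries (blue). Symbols are replicates 1 to 3 and short lines are group means. The 3 Stag2KO libraries lie at 169 to 187 CPM for Stag2, below all Stag2WT libraries, and Wapal is also lower in each Stag2KO library.

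Stag1, the alternative somatic subunit, did not pass the test, although each of its Stag2KO values lay above each Stag2WT value. It measured 136.46, 150.002 and 141.82 CPM across the Stag2KO libraries, against 126, 134 and 129 CPM across the Stag2WT libraries. The fitted Stag2KO level was 110% of Stag2WT with a 95% interval of 99.8% to 121% (log2 fold change 0.14, SE 0.06, adjusted p = 0.140). A Stag1 level above 121% of Stag2WT thus lies outside that interval, which, like the others given, is for a single gene and not adjusted for their number. In CPM the group means stood 12.98 higher for Stag1 and fell by 150.6 for Stag2. Stag3 was low, at 13.6, 16.3 and 12.9 CPM across the Stag2KO libraries, against 16.6, 15.5 and 17.9 CPM across the Stag2WT libraries. Its groups overlapped and it was not called (log2 fold change -0.22, 95% interval -0.50 to 0.05, adjusted p = 0.211).

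Within single libraries, the balance between both somatic Stag transcripts differed between the groups by a factor of 2.02. There were 0.807, 0.804 and 0.774 Stag1 reads per Stag2 read across the Stag2KO libraries, against 0.373, 0.409 and 0.398 across the Stag2WT libraries. All Stag2KO libraries lay above all Stag2WT libraries, and the log2 difference of 1.02 was 19.1 times the pooled within-group SD of 0.053. The denominator is Stag2, whose genotype defines the groups, so this separation is not a finding apart from the fall of Stag2. The edgeR log2 fold change was -0.88 for Stag2 and 0.14 for Stag1, which was not called. A ratio taken inside a library does not depend on library scaling. Per kilobase of exon, Stag1 made up 44.8% ± 0.561 of Stag1 plus Stag2 in Stag2KO and 28.7% ± 0.954 in Stag2WT (SD, n = 3 each), so Stag2 reads remained the larger share in both. The full Stag2 exon length was used in both groups. These are shares of reads, and whether the Stag2KO reads yield working Stag2 protein was not tested. Stag3 made up 5.95% ± 0.541 of the 3 Stag transcripts per kilobase in Stag2KO and 4.95% ± 0.405 in Stag2WT. The total it is a share of holds less Stag2 in Stag2KO, and Stag3 itself averaged 14.3 CPM in Stag2KO and 16.7 CPM in Stag2WT. Its shares barely parted, at 5.389% in Stag2KO replicate 3 and 5.381% in Stag2WT replicate 3. The two-sided exact permutation p was 0.1 for each ratio or share whose groups did not overlap, the smallest that 3 against 3 libraries allow. Adjusted over the 10 ratios compared, it was 0.167.

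None of the ring subunit genes was called. Smc1a, an ATPase arm of the ring encoded on the X chromosome, measured 359, 349.6 and 347 CPM across the Stag2KO libraries, against 364, 367 and 372 CPM across the Stag2WT libraries. Smc3, the partner arm, measured 258, 268 and 256 CPM across the Stag2KO libraries, against 271, 289 and 274 CPM across the Stag2WT libraries. Rad21, the kleisin cleaved by separase at anaphase, measured 351, 359 and 346 CPM across the Stag2KO libraries, against 386, 366 and 377 CPM across the Stag2WT libraries. For each of these genes all Stag2KO values lay below all Stag2WT values, by a small margin. Groups did not overlap, in one direction or the other, for 43.5% of all tested genes. The fitted Stag2KO level was 95.7% of Stag2WT for Smc1a (95% interval 87.4% to 105%, adjusted p = 0.447), 93.7% for Smc3 (85.3% to 103%, adjusted p = 0.282) and 93.6% for Rad21 (85.3% to 103%, adjusted p = 0.274). These intervals span modest falls as well as small rises. Summed over the 3 genes, the level was 965 ± 14.4 CPM in Stag2KO and 1022 ± 1.35 CPM in Stag2WT.

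Proportions among the ring genes overlapped between the groups, whereas their proportions to the Stag genes did not. Rad21 gave 1.352 ± 0.013 reads per Smc3 read in Stag2KO and 1.355 ± 0.082 in Stag2WT (exact permutation p = 1), and Smc1a gave 1.350 ± 0.046 in Stag2KO and 1.323 ± 0.048 in Stag2WT (exact permutation p = 0.6). Stag1 plus Stag2 reads stood at 0.316, 0.344 and 0.342 of the summed Smc1a, Smc3 and Rad21 reads across the Stag2KO libraries, and at 0.455, 0.453 and 0.442 across the Stag2WT libraries. The groups were separate, with the Stag2KO ratio at 74.2% of the Stag2WT ratio (log2 difference -0.43, 8.28 times the pooled SD). This ratio includes Stag2, the gene whose genotype defines the groups. Taken singly, Stag2 relative to the ring was at 57.6% of the Stag2WT ratio and Stag1 relative to the ring at 117% (log2 difference 0.22, 4.01 times the pooled SD), again with no overlap. The Stag1 difference is thus larger on the ring scale than on the CPM scale, on which the Stag2KO values of the ring genes lay below those of Stag2WT. Summed levels of Stag1 plus Stag2 per kilobase of exon were 48.6 ± 2.36 CPM per kb in Stag2KO and 69.1 ± 0.952 CPM per kb in Stag2WT, beside a mean of 70.7 ± 1.06 CPM per kb in Stag2KO and 74.9 ± 0.101 CPM per kb in Stag2WT for the ring genes.

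**Figure D2:**
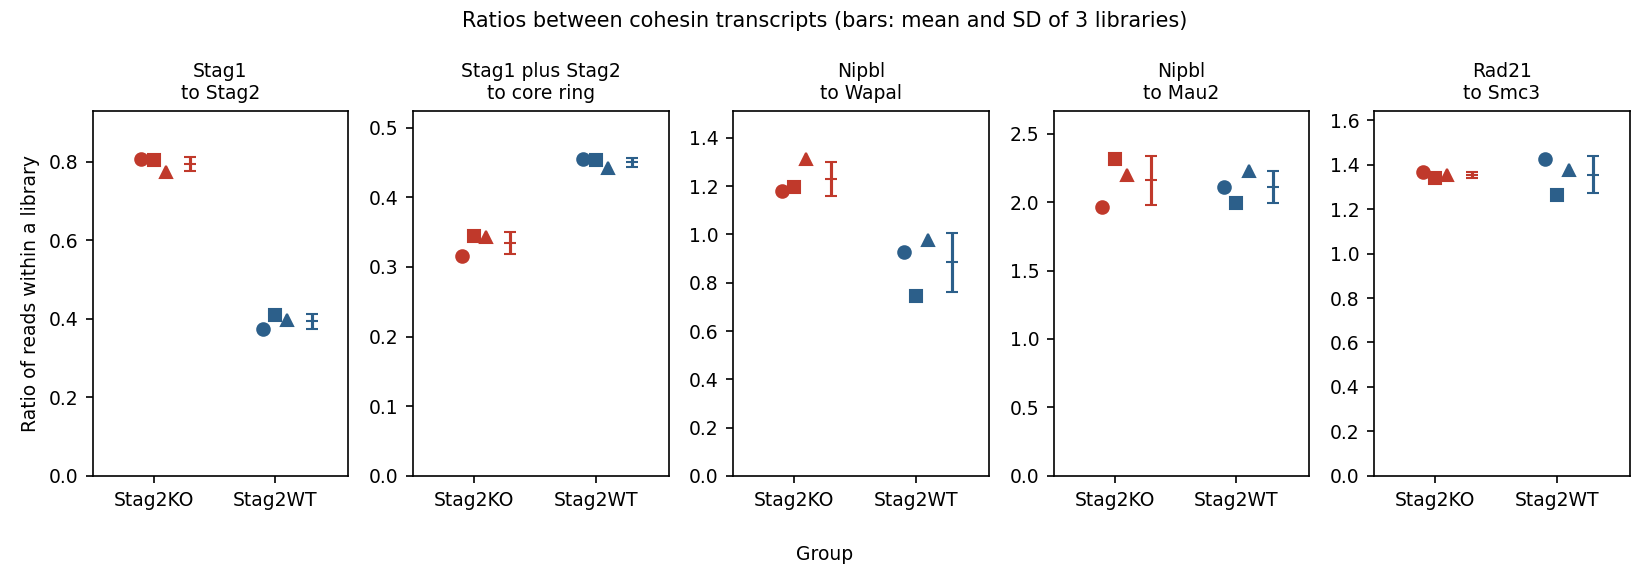
Ratios of read counts within each library, with Stag2KO (red) left of Stag2WT (blue). Circles, squares and triangles are replicates 1, 2 and 3, and bars give the mean and SD of 3 libraries. Stag1 to Stag2 is near 0.80 in Stag2KO and 0.39 in Stag2WT, Stag1 plus Stag2 to the core ring (Smc1a, Smc3 and Rad21) is lower in Stag2KO, Nipbl to Wapal is higher in Stag2KO, and Nipbl to Mau2 and Rad21 to Smc3 overlap.

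Wapal, which encodes the release factor Wapl, was the other member to fall. It measured 219.6, 243 and 214 CPM across the Stag2KO libraries, against 278, 297 and 266 CPM across the Stag2WT libraries. The groups did not overlap, and the fitted Stag2KO level was 80.5% of Stag2WT with a 95% interval of 71.7% to 90.3% (log2 fold change -0.31, SE 0.07, adjusted p = 0.0206). Leaving out Stag2KO replicate 1 (adjusted p = 0.0661) or Stag2KO replicate 3 (adjusted p = 0.0803) ended the call. Relative to the ring genes, Wapal was at 85.2% of the Stag2WT ratio (log2 difference -0.23, 2.93 times the pooled SD), with no overlap between groups.

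Neither loader gene was called. Nipbl, the large loader subunit, measured 259, 291 and 281 CPM across the Stag2KO libraries, against 258, 222 and 261 CPM across the Stag2WT libraries, so the groups overlapped (log2 fold change 0.17, 95% interval -0.02 to 0.35, adjusted p = 0.172). Its partner gene Mau2 measured 132, 126 and 128 CPM across the Stag2KO libraries, against 122, 111 and 117 CPM across the Stag2WT libraries, without overlap (log2 fold change 0.14, adjusted p = 0.135, with an edgeR p of 0.0499 before adjustment). Nipbl to Mau2 was 2.16 ± 0.179 in Stag2KO and 2.11 ± 0.117 in Stag2WT (exact permutation p = 0.8). Nipbl reads per Wapal read were 1.18, 1.198 and 1.31 across the Stag2KO libraries and 0.927, 0.747 and 0.979 across the Stag2WT libraries. Nipbl exceeded Wapal in each Stag2KO library and fell short of it in each Stag2WT library by read number, a comparison that depends on transcript length: per kilobase of exon the ratio was 0.829 ± 0.049 in Stag2KO and 0.596 ± 0.082 in Stag2WT. The log2 difference of 0.48 was 3.08 times the pooled SD.

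Ctcf, the DNA-binding factor at loop anchors, measured 225, 235 and 225 CPM across the Stag2KO libraries, against 233, 234 and 239.9 CPM across the Stag2WT libraries. The groups overlapped and the fitted Stag2KO level was 96.9% of Stag2WT, with a 95% interval of 88.7% to 106% (adjusted p = 0.583). Relative to the ring genes Ctcf stood at 0.237 ± 0.004 reads per ring read in Stag2KO and 0.231 ± 0.003 in Stag2WT (exact permutation p = 0.2).

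Across the 10 members, 2 were called lower, Stag2 and Wapal, where 10.5% of all tested genes were called lower and 21.2% were called in either direction. Stag2 is the gene whose genotype defines the groups, and of the other members Wapal alone was called. Nothing is read from this count about the members as a set. None was called higher by edgeR, DESeq2 or limma-voom, against 10.7% of all tested genes by edgeR. At an unadjusted p under 0.05, 3 members passed by edgeR, the third being Mau2 with a positive fold change. Of all tested genes, 37.1% had a smaller unadjusted edgeR p than Mau2, so nothing is read from this count either. The Stag2KO values lay below all Stag2WT values for 5 members and above them for 2, so groups did not overlap for 7 of 10 members, beside 43.5% of all tested genes. The median log2 fold change was -0.08 over the members and -0.06 without Stag2, against 0.01 over all tested genes. Summed over the members, the level was 2161 ± 55.9 CPM in Stag2KO and 2378 ± 13.2 CPM in Stag2WT. This sum and the counts above include Stag2, whose own group means differed by -150.6 CPM (Stag2KO minus Stag2WT).

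**Figure D3:**
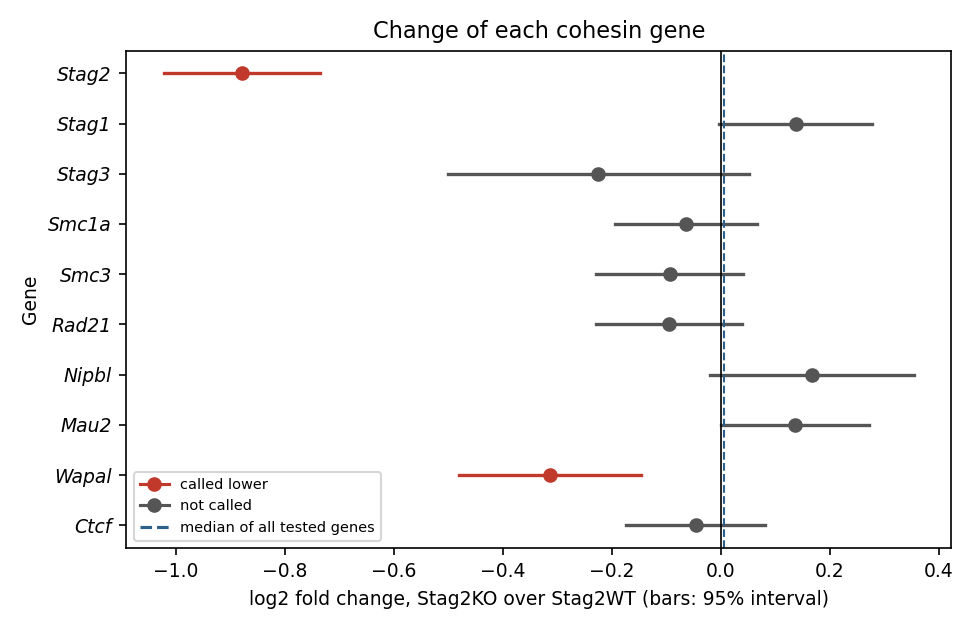
Fitted log2 fold change of each cohesin gene, Stag2KO over Stag2WT, with 95% intervals that are not adjusted for the number of genes. Stag2 (-0.88) and Wapal (-0.31) are called lower (red), and the median of all tested genes (dashed line, 0.01) lies within the intervals of the other 8 genes (grey).

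Levels of different genes can be set side by side only per length. Per kilobase of merged exon, the order in Stag2KO was Rad21 (83.3 ± 1.54 CPM per kb), Smc1a (75.0 ± 1.37), Ctcf (60.4 ± 1.58), Smc3 (53.7 ± 1.39), Wapal (35.5 ± 2.38), Nipbl (29.4 ± 1.75), Stag2 (26.8 ± 1.38), Mau2 (23.8 ± 0.571), Stag1 (21.8 ± 1.04) and Stag3 (3.08 ± 0.382). Nipbl and Stag2 were the only neighbours in that order whose libraries overlapped. In Stag2WT, Stag2 stood higher, at 49.3 ± 1.07 CPM per kb, between Smc3 (57.3 ± 2.03) and Wapal (44.2 ± 2.45), and the remaining order was as in Stag2KO, with no overlap between neighbours. Stag2 was thus the seventh of 10 in Stag2KO and the fifth in Stag2WT. Per kilobase of coding sequence much of the order differs, so it depends on the length chosen. Ctcf then ranked above Smc1a in both groups, and Nipbl ranked 9 of 10 in both groups. Stag2 ranked 7 of 10 in Stag2KO and 4 of 10 in Stag2WT, while Rad21 led and Stag3 came last on both lengths. The labels name library kits for other cell populations of the study but none for this one, and a kit that reads only transcript ends would make scaling by length inapt.

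The profiles most like Stag2 over the 6 libraries, among 10030 candidates averaging 5 CPM or more, were those of Pkig, a protein kinase inhibitor gene (Pearson r of log2 CPM = 0.997), Fgl2, a fibrinogen-like protein gene (r = 0.997), and Trf, the transferrin gene (r = 0.995). For Stag1 they were Cpa3, a mast cell carboxypeptidase gene (r = 0.987), Stard4, a sterol transfer gene (r = 0.978), and Dnm1l, a mitochondrial fission gene (r = 0.974). These values are descriptions over 6 libraries that fall into the 2 genotypes.

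Cohesin regulators, listed with earlier results of these data known, went in both directions. Of 25 tested, 4 were lower (16%, beside 10.5% of all tested genes), 1 was higher (beside 10.7%) and 20 were not called, with a median log2 fold change of -0.10. The lower share is near that of all tested genes, and nothing is read from it about the list. Pttg1, encoding securin, the inhibitor of separase, rose (44.1, 38.6 and 29.4 CPM across the Stag2KO libraries, against 20.4, 21.1 and 18.8 CPM across the Stag2WT libraries, log2 fold change 0.89, SE 0.14, adjusted p = 0.00501). Its Stag2KO libraries lay well above the Stag2WT libraries and differed among themselves. Esco2, encoding an S-phase acetyltransferase of Smc3, fell to 55.8 ± 3.40 CPM over Stag2KO libraries, against 78.0 ± 7.76 CPM over Stag2WT libraries (log2 fold change -0.48, SE 0.09, adjusted p = 0.00745). Pttg1 and Esco2 kept their calls whichever library was left out. Wdhd1, a replication fork gene (-0.36), the checkpoint kinase gene Bub1 (-0.26) and the meiotic kleisin gene Rec8 (-1.21) were also lower. With 1 library left out, Rec8 kept its call only without Stag2KO replicate 1 (adjusted p 0.0779 to 0.140 in the other fits), whose value of 17.0 CPM stood above the 7.90 and 7.73 CPM of the other Stag2KO libraries. It also lost the call when all genes with at least 1 read were tested (adjusted p = 0.124). Bub1 kept its call only without Stag2WT replicate 1 (adjusted p 0.0663 to 0.0859 in the other such fits) and lost it with no scaling beyond gene reads (0.0663), and Wdhd1 lost it without Stag2KO replicate 1 (0.0648), Stag2KO replicate 3 (0.0788) or Stag2WT replicate 2 (0.0561). Abundant regulators that were not called included Pds5a (log2 fold change 0.00), a Wapl partner gene whose sign turned under other scalings, Top2b (-0.08), a topoisomerase gene at loop anchors, and Chtf8 (-0.09), a clamp loader gene.

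Several genes of the other SMC complexes were lower. Of 8 genes of condensin, the ring complex that compacts mitotic chromosomes, 5 were lower (62.5%, beside 10.5% of all tested genes), 0 higher (beside 10.7%) and 3 not called. Their median log2 fold change was -0.24, with 2 to 4 lower when 1 library was left out and 3 lower with no scaling beyond gene reads. None was higher at an unadjusted p under 0.05, since every condensin gene had a negative fold change, with DESeq2 and limma-voom also calling none higher. In fits without 1 library, 902 to 1311 of 15960 to 16066 tested genes were called lower, beside 1647 of 15708 with all libraries. Ncapg2 (log2 fold change -0.46, SE 0.08, adjusted p = 0.0062) and Ncaph (-0.33, SE 0.07, adjusted p = 0.0125) kept their calls in every such fit, while Smc2 (-0.29, adjusted p = 0.0166) lost it without Stag2KO replicate 3 (0.0723). Ncaph2 (-0.23, adjusted p = 0.0409) lost its call in each such fit (0.0565 to 0.136), and Ncapg (-0.25, adjusted p = 0.0314) lost it except without Stag2KO replicate 2 or Stag2WT replicate 1 (0.0636 to 0.118). Of 6 tested genes of the SMC5/6 complex, which acts in DNA repair, 2 were lower (33.3%, beside 10.5% of all tested genes) and 4 not called. Smc6 fell (147 ± 5.13 CPM over Stag2KO libraries and 185 ± 7.22 CPM over Stag2WT libraries, log2 fold change -0.33, adjusted p = 0.0082), whereas its partner Smc5 had a log2 fold change of 0.07 (adjusted p = 0.530). Nsmce4a (-0.28, adjusted p = 0.0430) kept its call only without Stag2WT replicate 3 (0.0609 to 0.113 in the other fits). Ncaph2 and Ncapg overlap other annotated genes, and without a known strand setting their reads could be shared. The 3 core cohesin ring genes, by contrast, had log2 fold changes of -0.06 to -0.09, a difference from condensin that was not tested.

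Proliferation genes included many that were called lower. Of 16 such genes 9 were lower (56.2%, beside 10.5% of all tested genes), 0 higher and 7 not called by edgeR (0 higher also at an unadjusted p under 0.05, by DESeq2 and by limma-voom), with a median log2 fold change of -0.30, and their summed level was 5062 to 5510 CPM in Stag2KO and 6211 to 6934 CPM in Stag2WT. The cyclin gene Ccna2 (-0.43, adjusted p = 0.0122) and the survivin gene Birc5 (-0.44, adjusted p = 0.00635) were lower in every fit that left out 1 library, while Mki67 (-0.18, adjusted p = 0.125) was not called. The number lower was 3 without Stag2KO replicate 2, 2 without Stag2KO replicate 3 and 3 without Stag2WT replicate 2. Of all tested genes, 902 of 15960, 1005 of 15993 and 1027 of 16066 were called lower in these fits, beside 1647 of 15708 with all libraries. Several cohesin and condensin genes are known to vary with the cell cycle, and the part of proliferation in their values was not tested.

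Among 9 other factors of loop anchors or their partners, 2 were higher (beside 10.7% of all tested genes), 0 lower (beside 10.5%) and 7 not called by edgeR (0 lower also at an unadjusted p under 0.05, by DESeq2 and by limma-voom). With 9 genes, nothing is read from these counts about the list. Vezf1, a zinc finger gene, rose to 141 ± 4.80 CPM over Stag2KO libraries, against 105 ± 1.74 CPM over Stag2WT libraries (log2 fold change 0.42, SE 0.06, adjusted p = 0.00249). Ctcfl, the germline paralog of Ctcf, rose at a trace level, with 44, 23 and 40 reads across the Stag2KO libraries and 9, 7 and 7 reads across the Stag2WT libraries (log2 fold change 2.24, SE 0.40, adjusted p = 0.00744). It stayed at 1.06 ± 0.441 CPM in Stag2KO, and 8.11% of its 50-base stretches occur in other transcripts, an antisense gene among them, so its reads are less certain than those of Ctcf. Chd4 (0.07), Maz (-0.03), Ldb1 (-0.08) and Chd8 (0.10) were not called. Exons of Wdhd1, Pds5a, Top2b, Chtf8, Ldb1 and Chd8 overlap those of genes annotated on the opposite strand, which leaves their counts uncertain where strand was not used.

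**Figure D4:**
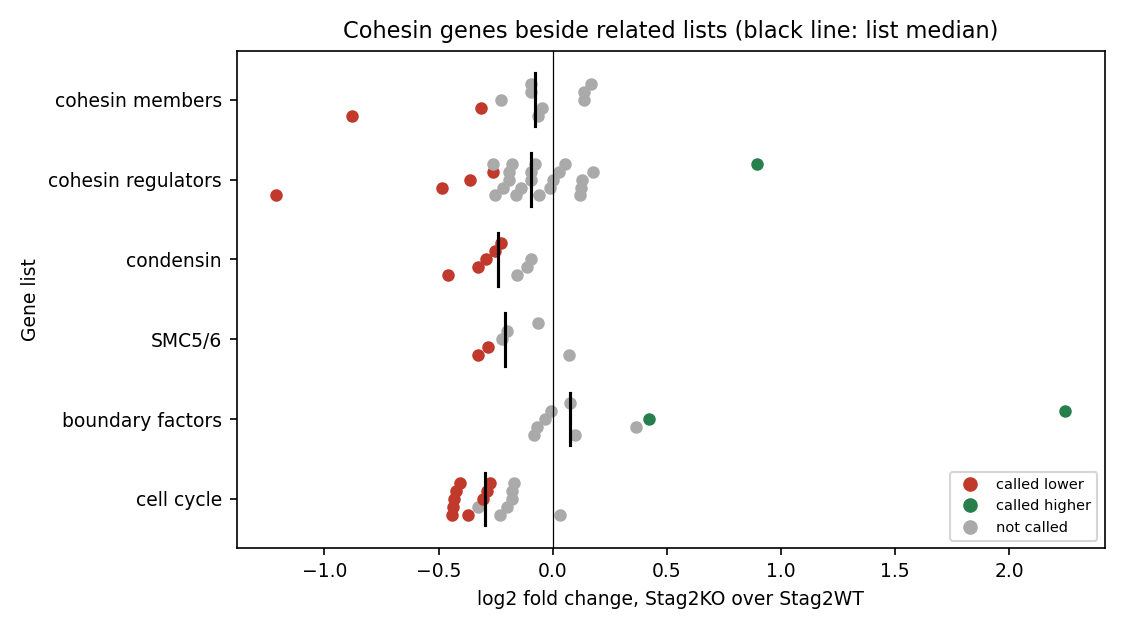
Fitted log2 fold changes, Stag2KO over Stag2WT, for the cohesin genes and 5 related lists, each point a gene and each black line a list median. Called genes are red (lower) or green (higher). Condensin and cell cycle genes lie mostly left of 0, the cohesin members other than Stag2 (-0.88) run from -0.31 (Wapal) to 0.17 (Nipbl), and Ctcfl (2.24) is the point farthest right.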

How the data were processed

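The values are raw counts by gene symbol, as the authors deposited them. The tools STAR 2.4, HTSeq 0.6.1 and DESeq2 and the build mm9 come from the submitters' processing notes. Annotation, strand setting and library kit: not given in the sources used here. Rows without a gene name did not enter the library sizes: no annotated gene 8.81% to 12.8% of a library, ambiguous 2.02% to 2.20%, aligned to several places 23.4% to 28.6%.

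Counts were fitted in edgeR 4.0.16 (R 4.3.3) with TMM scaling, filterByExpr and a robust quasi-likelihood fit on genotype, with Benjamini-Hochberg adjustment over 15708 genes and a threshold of 0.05. Intervals (95%) come from the fitted SE. Groups follow the genotype label, and replicate numbers follow accession order. Ratios used raw counts within a library, with exact two-sided permutation tests on log2 ratios. Exon lengths, 50-base stretches and printed coding sequences come from GENCODE M21 and gene order from RefSeq, both GRCm38, so no coordinates are given. The fit was checked on simulated data. Named were all members and, from each other list, called genes with the smallest p and uncalled genes with the highest CPM. A gene that this rule would name is not reported here. The members and lists were chosen with earlier results of these data known. Other scalings, filters, tools and fits without each library were tried as alternatives.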

Additional observations from a re-analysis of the deposited data

How the results depend on the processing

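Stag2 stayed lower under every alternative run, with log2 fold changes of -0.91 to -0.84 without 1 library and -0.89 to -0.83 under other scalings, filters and tools (DESeq2 1.42.0 and limma-voom 3.58.1 included). The members called lower numbered 1 to 2 without 1 library, the call lost being that of Wapal. The log2 Stag1 to Stag2 difference ran from 0.98 to 1.05, and that of Stag1 plus Stag2 to the ring from -0.45 to -0.39. Without 1 library, counts called lower were 1 to 4 for regulators, 2 to 4 for condensin, 1 to 2 for SMC5/6 and 2 to 8 for cell cycle genes. Those fits have fewer samples, and the share of all tested genes called in either direction was 12.3% to 15.9% in them, beside 21.2% with all libraries. Called lower in them were 902 to 1311 of 15960 to 16066 tested genes, beside 1647 of 15708 with all libraries. With no scaling beyond gene reads, 3 condensin genes and 1 SMC5/6 gene were lower and Bub1, Ncapg, Ncaph2, Nsmce4a and Top2a lost their calls, and limma-voom called 1 SMC5/6 gene, losing Nsmce4a. Rec8 lost its call among genes of at least 1 read. Under a floor of 5 CPM in 3 libraries, 1 boundary factor was higher, as Ctcfl was not tested. Signs turned only for values near 0, and the cause was not tested. Pds5a was at -0.0043 with median-ratio size factors, -0.00066 with all genes of at least 1 read, -0.0063 by DESeq2 and -0.042 to 0.039 without 1 library. Maz was at 0.0083 without scaling and -0.10 to 0.0072 without 1 library, and Smc5 at -0.00018 to 0.13. The log2 ratio differences without 1 library were -0.019 to 0.0996 for Nipbl to Mau2, -0.00042 to 0.055 for Smc1a to Smc3 and -0.0497 to 0.036 for Rad21 to Smc3. Sums per exon length were added after seeing the data. No paired analysis was possible because the codes in the titles do not link libraries of one group to those of the other.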
